A study of Setaria viridis with 13 samples.

Results

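Of the 4900 genes of green millet (Setaria viridis) with a deposited start site offset, 1475 (30.1%) had an offset of 1 to 100 nt. The genes were chosen by that offset alone, a signed distance in nt for each gene, and all of them are among the 35471 genes of the deposited expression table. Against the other 3425 listed genes they were more abundant and more broadly expressed. Relative to those genes, their levels leaned slightly towards panicles and the inflorescence meristem and away from the lower, mid and basal parts of a young leaf. How the offsets were made, and whether a positive sign points into or away from the annotated transcript, is not given in the sources used here.

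RNA came from wild-type plants of 1 accession, A10, grown in hydroponics, and each of the 13 samples was a whole dissected tissue at 1 age. They were the coleoptile at 3 days after germination, then at 10 days the bulk shoot, the vegetative meristem and the lower section, mid section, base and tip of leaf 3. At 15 days they were the bulk shoot, the bulk roots and the inflorescence meristem, at 20 days the bulk shoot, and at 22 and 25 days the panicle before and after anthesis. Each sample has 1 column of FPKM, the number of fragments for each kilobase of a transcript relative to the sample's total, and its 3 biological replicates are merged in that column. Replicate error is therefore not known, and no sample was tested against another. Depth cannot be read from these values and is unknown.

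Transcription by RNA polymerase II begins at a start site that the core promoter sets, often with the help of a TATA box a short way upstream. Many genes used in most cells start over a spread of positions, while genes switched on in few tissues often have a TATA box and a tighter start. The start site fixes the first base of the mRNA and so the length of its leader. In whole tissues, fewer cells of a type and less RNA per cell cannot be told apart. The gene IDs matched none of the 34587 genes of the reference table, so genes are given by ID, no function is assigned, and the tissue labels were not checked against marker genes.

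The window of 1 to 100 nt held the larger part of the positive offsets. Over the whole list offsets ran from -200 to 620 nt, and 2992 genes had a negative one. Offsets of -20 to -1 held 1779 genes, offsets below -20 held 1213, an offset of exactly 0 held 83 and offsets above 100 held 350. Inside the window the median offset was 31 nt, with quartiles of 14 and 58 nt, and the genes thinned out steadily with distance. The first 10 nt held 268 genes and the last 10 nt held 66.

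**Figure D1:**
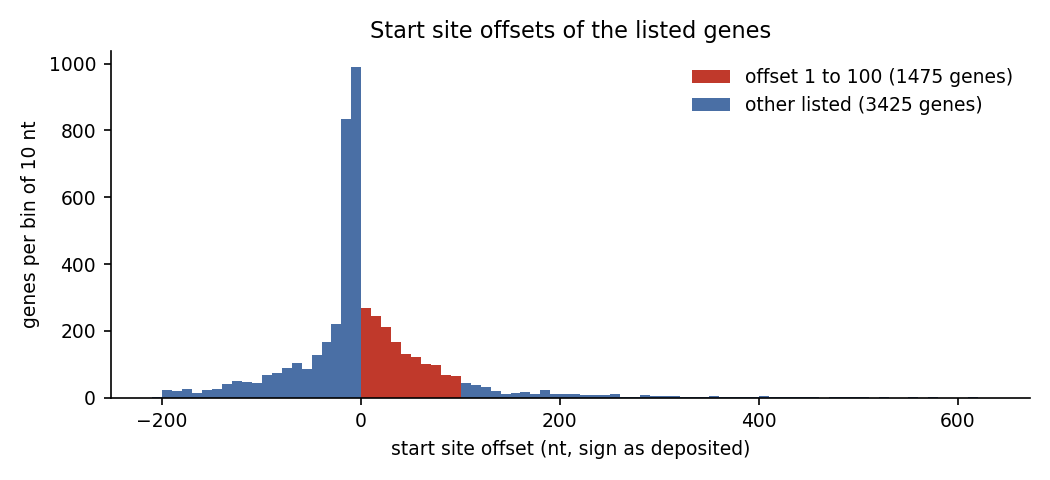
Number of listed genes (y axis) per bin of 10 nt of deposited start site offset (x axis, sign as deposited), with the 1475 genes at 1 to 100 nt in red and the other 3425 in blue. The red bars fall from 268 genes in the first bin to 66 in the last, beside the tall peak of small negative offsets.

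At the edges of the window, 41 genes had an offset of 1 nt and 83 had 0, while 8 had an offset of 100 nt and 3 had 101. These values describe the choice of genes and were not tested. Among genes just inside, Si030845m.g (offset 1) averaged FPKM 1836 and Si004287m.g (offset 1) averaged 796, and Si011289m.g (offset 100) averaged 238 and Si010368m.g (offset 100) averaged 35.3. Just outside, Si023662m.g (offset 0) averaged 3271 and Si010282m.g (offset 0) averaged 2989, and Si037178m.g (offset 101) averaged 158 and Si017823m.g (offset 101) averaged 147. Each of these 8 genes was chosen as the first or the next most abundant at its offset, so they do not describe the other genes there. Over all genes at each offset, the median of the mean FPKM was 58.3 at 0, 24.9 at 1, 26.5 at 100 and 147 at 101.

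Most genes with offsets of 1 to 100 nt were detected in every tissue. An FPKM of at least 1 in all 13 samples was reached by 1228 of the 1475 (83.3%), against 2061 of the 3425 other listed genes (60.2%) and 27.6% of all genes in the table. At an FPKM of at least 5 throughout, the counts were 845 (57.3%) and 1198 (35.0%). A single gene in the window reached FPKM 1 in no sample, against 28 other listed genes. At FPKM 1 the share in the window was also above that of the neighbouring classes. These stood at 63.5% for offsets of -20 to -1, 75.9% for the 83 genes with an offset of 0 and 75.1% for offsets above 100. Offsets below -20 were far lower, at 49.9%. At FPKM 5 the offset of 0 was level with the window, at 56.6%. The other shares there were 50.3% for offsets above 100, 39.0% for -20 to -1 and 23.2% below -20.

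**Figure D2:**
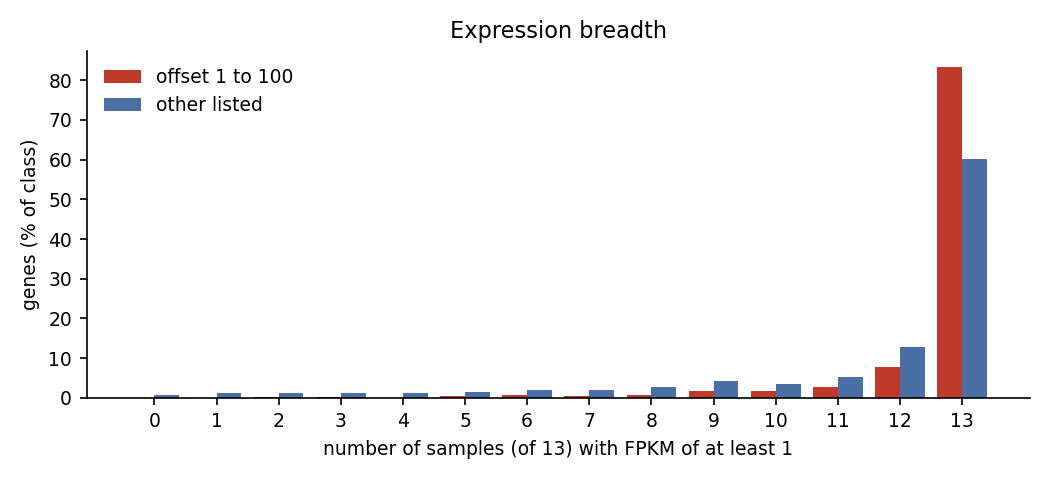
Share of genes (y axis, % of class) by the number of samples, 0 to 13, in which the gene reached FPKM 1 (x axis), for offsets of 1 to 100 nt (red) and the other listed genes (blue). The bar at 13 samples holds 83.3% of the red class and 60.2% of the blue one, and the blue class is higher at every smaller number.

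Root was the sample where these genes were most often missing. Of the 1475 genes, 161 (10.9%) were under FPKM 1 in the root, against 721 of the other listed genes (21.1%). The next highest counts for the window were 73 in the leaf tip and 64 in the leaf base, and the lowest was 16 in the bulk shoot of 20 days. Of the 114 genes of the window that missed FPKM 1 in a single sample, 83 missed it in the root and a further 15 in the leaf tip. Among the other listed genes 264 of 441 missed it only in the root and 63 only in the leaf tip. Without the root sample 1311 genes of the window reached FPKM 1 throughout.

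The genes of the window were also more abundant. Their mean FPKM over the samples had a median of 32.4 with quartiles of 14.03 and 86.0, against a median of 17.4 with quartiles of 6.90 and 45.3 for the other listed genes. On the scale of log2(FPKM + 1) averaged over samples, the medians were 4.73 and 3.74, a difference of 0.99. A mean FPKM of at least 100 was found for 335 genes of the window (22.7%) and for 436 others (12.7%). The class with an offset of 0 stood higher still, with a median of 58.3, while offsets above 100 had 25.8 and offsets of -20 to -1 had 21.6.

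Being listed at all went with abundance. Of all genes with a mean FPKM under 5, 2.91% had an offset, against 82.1% of those at 100 or more. Within the list, the share with an offset of 1 to 100 nt climbed through the same 6 ranges, from 11.5% of listed genes under FPKM 5 through 24.6%, 28.6%, 33.0% and 38.9% to 43.5% at 100 or more. Whether the authors listed genes by their read coverage is not given in the sources used here, and the part of abundance in the choice of genes was not tested.

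At like abundance the window still held more broadly expressed genes than the rest of the list, and unlisted genes came close to it. Between mean FPKM 10 and 20, 83.8% of 272 genes of the window reached FPKM 1 throughout, against 68.9% of 679 other listed genes and 86.7% of 1887 unlisted genes. Between 20 and 50 the shares were 89.8%, 78.1% and 88.5%. At 100 or more they were 92.2%, 85.3% and 89.3%. The window was above the other listed genes in all 6 ranges. Against unlisted genes it was lower from 5 to 10 (65.5% against 73.0%) and from 10 to 20, and higher in the other 4 ranges. Under FPKM 5 the classes were not alike in level, with median means of 3.24, 2.53 and 0.208.

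**Figure D3:**
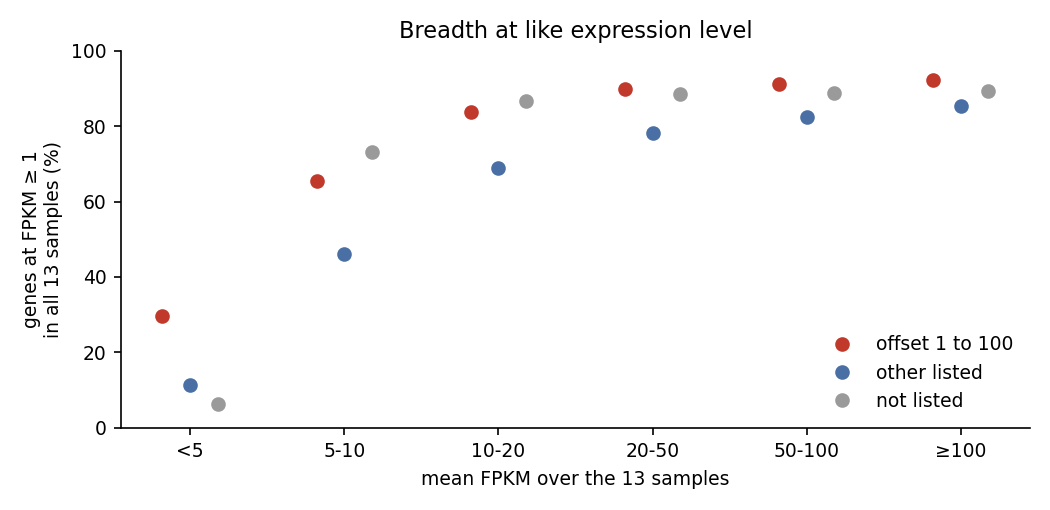
Share of genes at FPKM 1 or more in all 13 samples (y axis, %) within 6 ranges of mean FPKM (x axis), for offsets of 1 to 100 nt (red), other listed genes (blue) and genes with no listed offset (grey). Red lies above blue in every range, and grey lies close to red from FPKM 10 upwards.

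Tissue specificity was lower in the window than in the other listed genes, but unlisted genes of like abundance came close to it. The tau index, computed on log2(FPKM + 1), runs from 0 for a gene at 1 level in all samples to 1 for a gene found in a single sample, and was taken over genes at FPKM 5 or more in any sample. Its median was 0.24 over 1460 genes of the window, with quartiles of 0.18 and 0.34, and 0.31 over 3249 other listed genes, with quartiles of 0.22 and 0.48. A tau of at least 0.85 was reached by 4 genes of the window (0.274%) and by 99 other listed genes (3.05%), against 5.51% of all such genes in the table. The median was 0.26 both for an offset of 0 and for offsets above 100, where 0.59% reached 0.85. Between mean FPKM 10 and 20 it was 0.28 in the window, 0.31 in other listed genes and 0.25 in unlisted genes. Unlisted genes had a lower median than the window from mean FPKM 5 to 50 and a higher one in the other ranges. Broad did not mean constant, however. The median span between a gene's lowest and highest sample was 2.91 on the log2 scale in the window, 3.39 in the other listed genes and 2.73 in all genes at that level. Of genes with a mean FPKM of at least 10, a coefficient of variation under 0.2 was found for 1 of 1220 in the window, for 7 of 2253 other listed genes and for 16 of 6683 in the whole table.

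In every sample the median level of the window was above that of the other listed genes. The difference of medians in log2(FPKM + 1) ran from 0.78 in the lower section of leaf 3 and 0.84 in its mid section to 1.12 in the root and 1.13 in the panicle after anthesis. The medians of the window themselves ran from 4.31 in the leaf base to 5.27 in the bulk shoot of 20 days. In the whole table these samples stood at either end of the median-ratio scaling factors (log2 of -0.54 and 0.55), so the order of samples within a class moves with scaling. The gap of 0.99 in mean level was 0.98 after median-ratio rescaling and 0.99 with equal sums. Both multiply all genes of a sample by 1 factor, so they could hardly move this gap and are no check of it.

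To set tissues side by side, each gene's level was taken relative to its own mean over the 13 samples. On this scale the window exceeded the other listed genes most in the panicle after anthesis, with medians of 0.46 and 0.18. In the inflorescence meristem the medians were 0.33 and 0.10, in the panicle before anthesis 0.36 and 0.19, in the root -0.12 and -0.28, and in the coleoptile 0.10 and -0.01. The window was below the other listed genes in the lower section of leaf 3 (-0.32 and -0.13), in the mid section (-0.07 and 0.10) and in the leaf base (-0.61 and -0.46). In the remaining 5 samples the medians differed by at most 0.06.

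The lean held at like abundance in part of the tissues. Over the 5 ranges of mean FPKM from 5 upwards, the window was above the other listed genes in all 5 for both panicles, the inflorescence meristem and the coleoptile. It was below them in all 5 for the leaf base, the mid section and the bulk shoots of 10 and 15 days, and in 4 of 5 for the lower section. In the root it was above in 4 of 5, with differences from -0.04 to 0.40. The root difference also depended on which genes it was set against, at 0.54 against offsets below -20, 0.19 against offsets above 100 and -0.07 against offsets of -20 to -1. Against offsets of -20 to -1 the panicle after anthesis (0.21), the panicle before it (0.14) and the inflorescence meristem (0.16) were again higher, and the lower and mid sections were again lower (-0.12 each), with -0.05 left in the leaf base. Against offsets above 100 and below -20 the directions were the same. The inflorescence meristem was at 0.52 and 0.30, the panicle after anthesis at 0.29 and 0.39, and the panicle before it at 0.24 and 0.22. The lower section was at -0.47 and -0.26, the mid section at -0.49 and -0.17, and the leaf base at -0.425 and -0.24. Genes with an offset of 0, and in part unlisted genes, gave another picture. Against the 83 genes with an offset of 0 the inflorescence meristem was at -0.38, the panicle before anthesis at -0.09 and the panicle after it at 0.12, while the leaf base, mid and lower sections lay between 0.01 and 0.05. Against unlisted genes the panicles stood out, at 0.43 after and 0.34 before anthesis, and the lower section (-0.16) and leaf base (-0.13) were lower. The inflorescence meristem was at 0.04 and the mid section at 0.10.

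**Figure D4:**
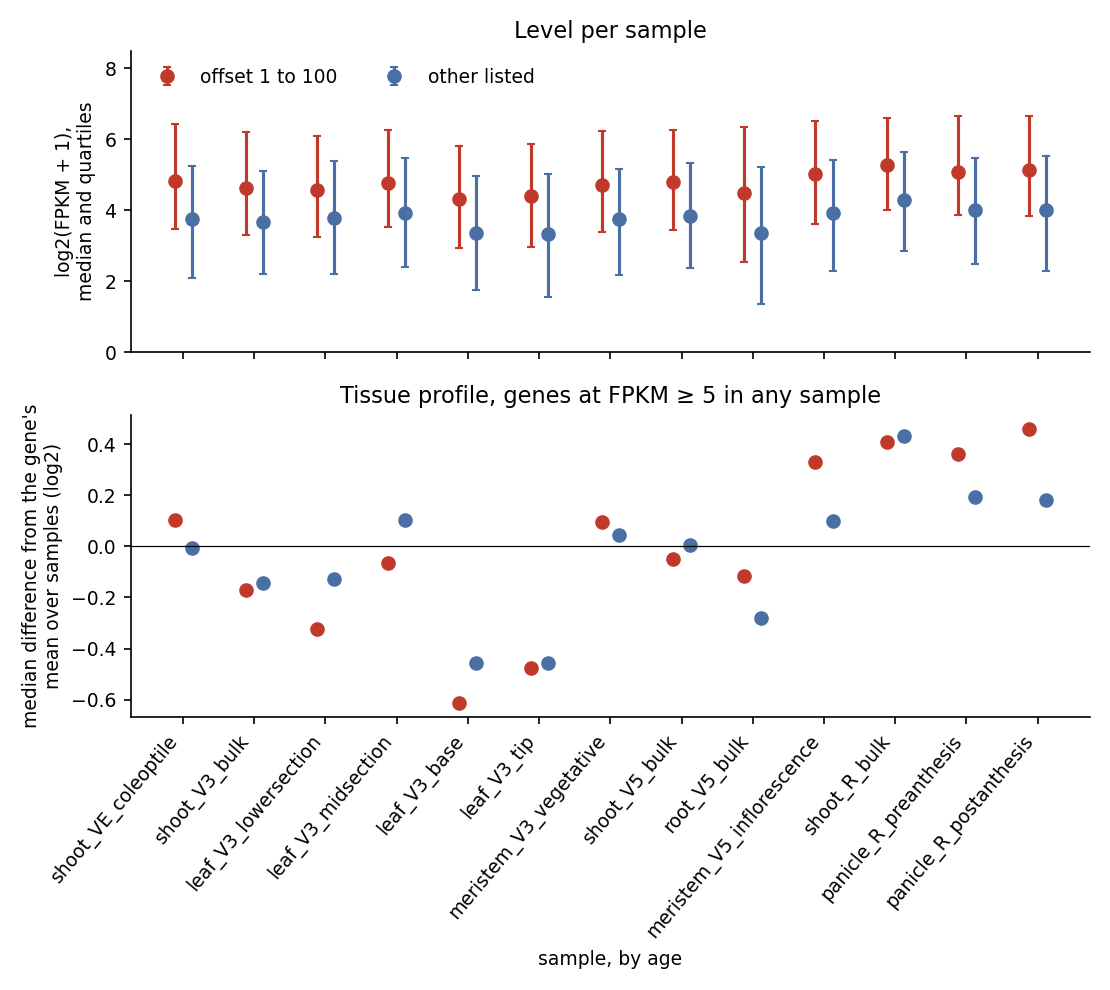
Level by sample for offsets of 1 to 100 nt (red) and the other listed genes (blue), with samples by age on the x axis. Upper panel, median and quartiles of log2(FPKM + 1); lower panel, median difference from each gene's own mean over the samples (log2), where red stands above blue in both panicles, the inflorescence meristem, the coleoptile and the root and below it in the lower, mid and basal parts of leaf 3.

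The sample in which each gene was highest gave a similar picture in part. Of the 1460 genes of the window at FPKM 5 or more in any sample, 277 (19.0%) were highest in the root, 259 (17.7%) in the inflorescence meristem and 241 (16.5%) in the panicle after anthesis. The shares of the other listed genes were 18.7%, 14.7% and 12.5%, and those of all genes at that level were 22.1%, 17.2% and 9.72%. The root share was thus under that of all genes and the inflorescence meristem share close to it. With equal sums the panicle after anthesis held the most genes of the window, 256 against 232 in the root. The 4 parts of leaf 3 together held 352 genes of the window (24.1%), against 29.1% of the other listed genes, and the gap lay in the mid section (5.14% against 9.05%) and the lower section (7.12% against 9.85%). The leaf base (4.25% against 2.52%) and the coleoptile (5.41% against 6.65%) went the other way from the medians given above. The bulk shoot of 10 days was the highest sample for 0 genes of the window and for 8 others. After median-ratio rescaling of the samples the inflorescence meristem held 8.49% of the window and 8.27% of the other listed genes, so that gap closed, while the panicle after anthesis held 15.5% and 11.5%. The root then held the most genes of the window, 360 (24.6% against 22.8%). The coleoptile held 10.4% and 10.2%, so it no longer went the other way, while the leaf base still did (9.58% and 7.69%).

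The genes of the window supplied 26.0% to 32.0% of the summed FPKM of a sample, with the lowest share in the leaf tip and the highest in the inflorescence meristem. The other listed genes supplied 36.4% of it in the inflorescence meristem and 53.2% in the leaf base. The 10 genes of the window with the highest mean FPKM made up 11.2% of its sum in the leaf tip and 26.6% in the coleoptile. Leaving them out lowers the share in any sample. It then ran from 21.2% in the lower leaf section to 24.7% in the inflorescence meristem, which was again highest.

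The most abundant gene of the window, Si031814m.g (offset 47), was high in all tissues, with a mean FPKM of 8281. It ran from 3349 in the bulk shoot of 20 days to 18053 in the lower section of leaf 3, with 17198 in the mid section, 13776 in the coleoptile and 9877 in the root. Si027096m.g (offset 23) had a mean of 5985 that came from 4 samples. It was at 24153 in the panicle before anthesis, 17681 in the coleoptile, 16727 in the vegetative meristem and 12330.0 in the inflorescence meristem, but at 1897 or less in the other 9 samples, down to 34.8 in the leaf base and 13.1 in the root. Si011152m.g (offset 55) had a mean of 4105 and was highest in the inflorescence meristem (10513), the root (9089) and the vegetative meristem (8078), and lowest in the leaf tip (860.1).

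The steadiest genes of the window were of moderate level. Si020398m.g (offset 14) ran from FPKM 20.4 in the panicle before anthesis to 31.4 in the inflorescence meristem, with a coefficient of variation of 0.15. Si026206m.g (offset 88) ran from 32.4 in the leaf base to 63.0 in the leaf tip, with a coefficient of 0.20. Si017463m.g (offset 2) ran from 34.0 in the bulk shoot of 10 days to 75.6 in the mid section of leaf 3, with a coefficient of 0.21. All 3 were present in every tissue.

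The 4 genes of the window with the highest tau, picked for being found in few samples, were each highest in a different tissue. Si023843m.g and Si002696m.g also passed FPKM 5 outside their highest sample. Si002437m.g (offset 19) was at FPKM 110 in the root, at 1.31 in the vegetative meristem and at 0.526 or less in the other samples. Si020642m.g (offset 9) was at 86.4 in the leaf tip, 2.68 and 1.71 in the bulk shoots of 10 and 15 days and 0.840 or less elsewhere. Si023843m.g (offset 1) had 15.7 in the coleoptile, 5.92 in the root and 0.173 or less in the other samples. Si002696m.g (offset 24) was at 49.6 in the panicle before anthesis, 11.04 in the bulk shoot of 20 days, 7.22 in the panicle after anthesis and 1.62 in the inflorescence meristem, with 0.526 or less elsewhere. Their tau values were 0.95, 0.94, 0.93 and 0.85.

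**Figure D5:**
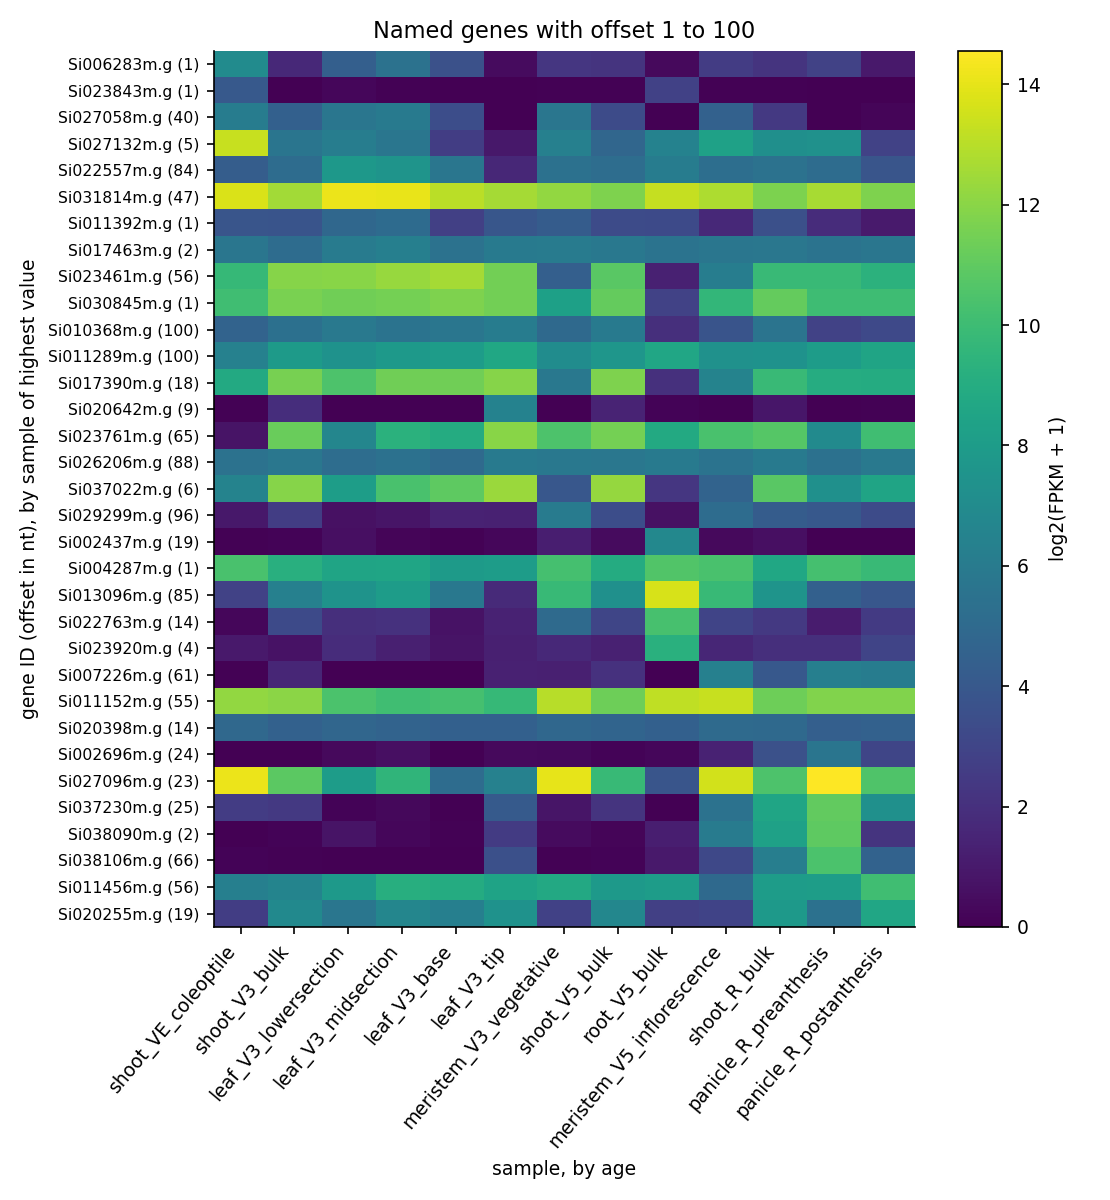
Colour gives log2(FPKM + 1) of the 33 genes named from the window (rows, gene ID with its offset in nt, ordered by the sample of their highest value) in each of the 13 samples (columns, by age). Rows of even colour such as Si031814m.g and Si020398m.g stand beside rows with a single bright sample such as Si002437m.g in the root.

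In 7 pairs of samples, genes were called by size. A call needed a log2(FPKM + 1) gap of 2 or more, and FPKM 5 or more on the higher side, and shares are of the genes at FPKM 5 or more in either sample. The pairs of the vegetative meristem, the coleoptile and the bulk shoot of 20 days share the bulk shoot of 10 days, and the vegetative meristem also stands in the pair of meristems, so their counts are not independent of each other. With 1 value per sample, the calls have no replicate check.

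Between root and bulk shoot at 15 days, 159 genes of the window were called higher in the root (11.5% of 1378) and 294 lower (21.3%). The other listed genes had 15.6% higher and 25.8% lower, and the table as a whole 16.7% and 17.5%. At this threshold the window was thus under the background for higher calls and over it for lower ones. With a log2 threshold of 1 its counts were close to even, at 395 higher and 421 lower, but no share of all genes was computed there. Median-ratio rescaling gave 182 higher and 276 lower, and equal sums gave 113 and 332. Si023920m.g (offset 4) was at FPKM 595 in the root, against 1.55 in the shoot, and did not pass 6.78 in any other sample. Si022763m.g (offset 14) was at 1259.7 in the root, against 7.11 in the shoot, with 32.4 in the vegetative meristem. Both had their highest value in the root, while the 2 named genes called lower were highest in the leaf tip. Si037022m.g (offset 6) was at 3.99 in the root, against 4972 in the shoot, and at 5256 in the leaf tip. Si017390m.g (offset 18) was at 3.11 in the root, against 3491 in the shoot, and at 3874 in the leaf tip.

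Between the vegetative meristem and the bulk shoot at 10 days, 32 genes of the window were called higher in the meristem (2.37% of 1352, background 2.95%) and 147 lower (10.9%, background 6.34%). For the other listed genes the shares were 4.94% and 12.03%. Si013096m.g (offset 85) was at FPKM 903 in the meristem, against 80.0 in the shoot, and far higher in the root, at 13215. Si029299m.g (offset 96) was at 65.3 in the meristem, against 5.36 in the shoot, and had its next highest value in the inflorescence meristem, at 33.8. The 2 named genes called lower were again abundant in leaf. Si037022m.g was at 14.8 in the meristem, against 3794 in the shoot. Si023461m.g (offset 56) was at 19.97 in the meristem, against 3874 in the shoot, with 6122 in the leaf base and 1.53 in the root. With median-ratio rescaling the meristem shifted by -0.57 relative to the shoot, which left 15 genes higher and 193 lower, so that 7.21% of the calls were higher, against 17.9% as deposited. At a log2 threshold of 1 the balance turned, with 283 higher and 236 lower, but no share of all genes was computed there. The median difference of the pair was 0.67 over all genes and 0.46 in the window, so the samples differed across the table.

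Few genes of the window were called between the 2 meristems, with 9 higher in the inflorescence meristem than in the vegetative one and 9 lower (each 0.67% of 1344, background 0.933% and 1.29%). Among other listed genes the shares were 2.02% and 2.59%. The even balance depended on the settings. A log2 threshold of 1 gave 176 higher and 48 lower, and a pseudocount of 0.1 gave 17 and 12. No share of all genes was computed in these settings. The median difference of the pair was 0.13 over all genes and 0.29 in the window. Si038090m.g (offset 2) was at FPKM 65.7 in the inflorescence meristem, against 0.320 in the vegetative meristem. Si007226m.g (offset 61) was at 80.0 in the inflorescence meristem, against 1.40 in the vegetative one, and was also high in the panicles, at 78.3 before and 67.6 after anthesis. In the other direction Si011456m.g (offset 56) was at 30.3 in the inflorescence meristem, its lowest sample, against 445 in the vegetative one. It has 7 annotated transcripts, and these values are those of 1 of them. Si011392m.g (offset 1) was at 2.14 in the inflorescence meristem, against 18.03 in the vegetative one.

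Along leaf 3, 36 genes of the window were called higher at the tip than in its lower section (2.75% of 1310, background 2.92%) and 105 lower (8.02%, background 10.4%). Both shares were higher among the other listed genes, at 3.89% and 14.9%. Si020642m.g was at FPKM 86.4 in the tip and was listed at 0 in the lower section. Si023761m.g (offset 65) had 3955 at the tip and only 104 in the lower part. Of the genes lower in the tip, Si022557m.g (offset 84) had 2.03 at the tip and 220.3 in the lower part. Si013096m.g had 2.36 at the tip and 180.0 in the lower part, so the gene named above for its high levels in the root and both meristems had its lowest level in the leaf tip.

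Between the panicle after and before anthesis, 10 genes of the window were called higher after anthesis (0.73% of 1362, background 2.00%) and 21 lower (1.54%, background 2.08%). Of the rest of the list, 1.90% and 4.15% were called. Si020255m.g (offset 19) was at FPKM 392.4 after anthesis, against 43.0 before it, and Si023761m.g was at 1074 after it, against 125 before. Of the genes called lower, Si038090m.g was at 3.63 after anthesis, against 1977 before it, and Si038106m.g (offset 66) was at 22.9 after it, against 1359.6 before. Both had their next highest value in the bulk shoot of 20 days, at 321 and 72.5.

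In the coleoptile against the bulk shoot of 10 days, 20 genes of the window were called higher (1.49% of 1343, background 2.23%) and 80 lower (5.96%, background 4.64%). In the rest of the list the shares were 4.28% and 7.76%. At a log2 threshold of 1 the balance turned, with 202 higher and 153 lower, but no share of all genes was computed there. The median difference of the pair was 0.21 over all genes and 0.37 in the window. Si027132m.g (offset 5) was at FPKM 10296 in the coleoptile, against 49.9 in the shoot, with 316 in the inflorescence meristem and 0.932 in the leaf tip. Si006283m.g (offset 1) was at 131 in the coleoptile, against 2.23 in the shoot. In the other direction Si023761m.g was at 0.705 in the coleoptile, against 2368 in the shoot. Likewise Si037022m.g was at 88.9 in the coleoptile, against 3794.

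The bulk shoot of 20 days differed from that of 10 days mainly by higher calls as deposited, with 24 genes of the window higher (1.75% of 1374, background 2.12%) and 2 lower (0.15%, background 0.131%). That balance turned with scaling. Median-ratio rescaling moved the later shoot by -0.78 against the earlier one and gave 7 higher and 13 lower, so that 35.0% of the calls were higher, against 92.3% as deposited. The other listed genes had 2.89% higher and 0.33% lower. Si038090m.g was at FPKM 321 in the later shoot, against 0.0943 in the earlier one, and Si037230m.g (offset 25) was at 382 in the later shoot, against 4.39. Both were highest in the panicle before anthesis, at 1977 and 2105. The 2 genes called lower were Si027058m.g (offset 40), at 4.24 in the later shoot, against 21.5 in the earlier one, and Si023461m.g, at 948 in the later shoot, against 3874.

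Across the 7 pairs the window, as deposited, had a smaller share of calls than the other listed genes in each direction. Relative to the whole table its share was lower for higher calls in all 7 pairs, but the margin was small in some. It was 2.75% against 2.92% in the leaf tip and 1.75% against 2.12% in the bulk shoot of 20 days. Between the meristems it was 0.67% against 0.933%. For lower calls the share of the window was above the background in the root, the vegetative meristem and the coleoptile. It was near the background in the bulk shoot of 20 days, where 2 genes were called, and below it in the other 3 pairs. The median difference over the genes of the window and over the other listed genes was furthest apart in the leaf pair, at -0.06 and -0.245, and in the root pair, at 0.04 and -0.13. It was 0.46 and 0.41 in the vegetative meristem and 0.54 in both classes in the bulk shoot of 20 days. Over all genes it was -0.23 in the leaf pair, 0.11 in the root pair, 0.67 in the vegetative meristem and 0.70 in the bulk shoot of 20 days.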

How the data were processed

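Per the labels' protocols, polyadenylated RNA was made into cDNA and read as paired ends. STAR and DESeq2 are named, without role or version, per the submitters' processing notes; the build, annotation and way replicates were merged are not given there. The deposited expression values are on a log2 scale to 2 decimals; base 2 and an added 1 were inferred from the values, which then sum to 884742 to 1110012 FPKM per sample over 40599 transcripts. The deposited offsets are signed whole numbers, used as they stand.

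A gene took the values of its transcript of highest mean FPKM. Genes were named by fixed rules: per pair the 2 largest log2 differences each way, the 3 highest means, the 3 lowest coefficients of variation, the 4 highest tau values, and 2 genes at each edge of the window. The window, rules and pairs were chosen with earlier results of these data known. No tests were made, since genes are not replicates. The size rule and tau were tested on simulated data. Alternatives covered floors, pseudocount, scaling, transcripts, window and samples left out. Python 3.11.15, pandas 2.3.3, numpy 2.4.6, scipy 1.17.1 and matplotlib 3.10.9 were used.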

Additional observations from a re-analysis of the deposited data

How the results depend on the processing

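No paired analysis was possible because each sample has a single column of values. Of 154 recomputed values 129 stayed within the limits set, which for counts, tau and level were wide (1.5 times the reported value) and for the gap in broad expression were 1.90 percentage points. The other 25 moved. Among the 129, the gap in level could hardly move under rescaling, for the reason given above. The 1.90 points are the reach to either side of the 95% interval of the window's own share, 81.3% to 85.1%. That interval takes genes as independent draws and covers 1 share, not a gap, so it served only as a limit and measures no replicate error. Single counts have no sign, so turns in the balance of higher and lower calls are named below. The gap in broad expression between the window and the other listed genes, 23.1 percentage points, was 19.6 with a floor of FPKM 0.5, 19.7 against offsets of -20 to -1, 8.11 against offsets above 100, 21.0 without the root, and 25.2 with genes of 1 transcript (chosen after seeing the data, as was leaving out each other sample in turn). Leaving out each of the other 12 samples gave 22.3 to 23.2 points and 1228 to 1243 genes. That count of genes could only stay or rise when a sample was left out. Against offsets above 100 the gap in median tau was -0.026 (reported as -0.074) and in level 0.35 (reported as 0.99).

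A log2 threshold of 1 gave, for higher calls, 395 in the root, 283 in the vegetative meristem, 176 in the inflorescence meristem, 142 in the leaf tip, 51 in the panicle after anthesis, 202 in the coleoptile and 240 in the bulk shoot of 20 days. For lower calls it gave 236, 48, 261, 76, 153 and 24 in the last 6 of these, and 421 in the root, which stayed within the limits. The balance thus turned to higher calls in the vegetative meristem and the coleoptile. It was no longer even in the inflorescence meristem and came close to even in the root. Shares of all genes were computed only for the size rule as deposited. These changes in balance are therefore not set against the table as a whole. A pseudocount of 0.1 gave 17 genes higher in the inflorescence meristem. Median-ratio rescaling gave 15 higher in the vegetative meristem, and 7 higher and 13 lower in the bulk shoot of 20 days, where the balance turned and where equal sums gave 1 lower. The cause was not tested. Depth is unknown, and values near 0 are limited by rounding.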

Other observations

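Position within the window went with little else. Across the 1475 genes, Spearman's rho with the offset was 0.02 for the mean log2(FPKM + 1), and -0.00 for the number of samples at FPKM 1 or more, and -0.01 for tau over 1460 genes. These are correlations across genes of the same 13 samples and are given as a description. In steps of 10 nt the share of genes at FPKM 1 throughout ran from 78.4% at 71 to 80 nt to 88.6% at 31 to 40 nt, and the median of the mean FPKM from 26.9 at 31 to 40 nt to 45.0 at 41 to 50 nt.

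Genes of the window more often had several annotated transcripts. More than 1 transcript was listed for 467 of the 1475 (31.7%), for 652 of the 3425 other listed genes (19.0%) and for 9.96% of all genes. The share was 29.7% for offsets above 100, 20.7% for offsets of -20 to -1 and 13.2% for offsets below -20. Within the window it was highest at 41 to 50 nt, with 58 of 131 genes (44.3%), and lowest at 81 to 90 nt, with 15 of 67 (22.4%). Since 1 transcript stood for each gene, its choice could touch the levels, and summing transcripts instead gave 1249 genes at FPKM 1 throughout, against 1228.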
